A study of Bos taurus and Mus musculus with 16 samples.

Results

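Nucleoporins, importins, exportins, transportins and the GTPase Ran with its binding proteins were followed in mouse and bovine embryos in which the gene of the transcription factor TEAD4 had been base-edited. The genes were taken by symbol alone, as every NUP, KPNA, KPNB, XPO, IPO, TNPO, RAN and numbered RANBP gene of the 2 expression tables. That gave 50 of 16655 genes in mouse and 50 of 14852 in bovine, 48 of which carried the same symbol in both. By symbol, mouse Kpna7 and Nup62cl and bovine KPNA5 and NUP58 appeared in 1 table each, and the other symbols of these families were not analysed here. Mouse Nup58 was present under its older symbol, Nupl1, which this choice by symbol left out of the set. The set therefore covers most of the nuclear pore but not all of it, and pore and Ran-cycle genes with other names (such as Pom121 and Rcc1) are given separately.

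The nuclear pore complex is a ring-shaped channel through the nuclear envelope, built of stacked scaffold rings, a central channel lined by nucleoporins with phenylalanine-glycine (FG) repeats, filaments on the cytoplasmic side and a basket on the nuclear side. Importin alphas bind proteins that carry a nuclear localization signal and pass them to importin beta (KPNB1), and other beta-type receptors carry their cargo directly. Ran bound to GTP releases import cargo inside the nucleus and loads exportins there. Early embryos begin with oocyte-derived import receptors, and KPNA7 is an importin alpha known from mouse and bovine oocytes and cleavage-stage embryos.

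Polyadenylated RNA was sequenced from 16 samples. In the edited groups, zygotes received mRNA of BE3, a cytosine base editor made of a Cas9 nickase and a cytidine deaminase, together with single guide RNAs against Tead4 (mouse) or TEAD4 (bovine). In the control groups, zygotes received BE3 mRNA with no guide RNA, so that all embryos carried the editor and the presence of guide RNA itself cannot be told apart from the loss of TEAD4. Mouse embryos were taken as morulae at day 3.25 (2 edited and 2 control samples) and bovine embryos as blastocysts at day 7.0 (6 edited and 6 control samples), so that species and stage cannot be told apart. Neither the number of embryos in a sample nor separate injections are stated, so p-values rest on a spread among samples that could be purely technical. The SE, confidence intervals and p-values from limma also draw on the variance of all genes tested. They are thus not the spread of a gene's own libraries, which can be wider.

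Mouse Tead4 stood at 57.2 and 76.5 normalized reads in edited morulae, against 458 and 519 in control morulae (log2 fold change -2.86 ± 0.25 SE, limma adjusted p = 5.37e-09). Bovine TEAD4 averaged 41.2 ± 15.6 normalized reads in edited blastocysts and 96.7 ± 23.4 in control blastocysts (SD, n = 6 each), a log2 fold change of -1.25 ± 0.25 SE with a limma adjusted p of 0.235. It passed with DESeq2 on the recovered reads (adjusted p = 0.0066) and in the authors' deposited table (adjusted p = 0.0142). The edited libraries held 22.6 to 65.6 normalized reads of TEAD4 and the control libraries 61.2 to 125, and the groups overlapped only where edited library 6 (65.6) lay above control library 3 (61.2). The unit, normalized reads, is the read count of a gene over the authors' size factor for its library. The mouse libraries held 4386305 and 6109425 reads in the edited group and 4187826 and 3642907 in the control group, and the bovine libraries held 817329 to 2259064 in the edited group and 934078 to 2501592 in the control group. A count of 3 reads corresponds to 2.13 to 3.79 normalized reads in mouse and 1.71 to 5.56 in bovine libraries, a limit that covers counting error only. The ribosomal RNA gene RN18S1 took 9.27% to 19.7% of the reads in bovine edited libraries and 12.4% to 36.6% in bovine control libraries, with 36.6% in control library 6 and 25.2% in control library 3. In mouse, LOC101056014 took 7.20% and 4.73% of the reads in the edited libraries and 2.42% and 3.30% in the control libraries. Its part in the mouse differences was not tested.

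The mouse gene with the smallest adjusted p of the set, Nup62, encodes an FG nucleoporin of the central channel, and its relative Nup62cl and channel partner Nup54 differ from it in their coding sequence. The 120-base coding stretches with the most FG codon pairs are shown for these 3 genes, since the channel genes had the highest median log2 fold change of the 8 role groups, and they were chosen after those values were seen. They come from the GENCODE M21 transcripts of mouse build GRCm38 and are written 5′ to 3′ on the coding strand. Capitals mark in-frame codon pairs of the form TTTGGN or TTCGGN, which encode phenylalanine followed by glycine.
Nup62, coding bases 1 to 120: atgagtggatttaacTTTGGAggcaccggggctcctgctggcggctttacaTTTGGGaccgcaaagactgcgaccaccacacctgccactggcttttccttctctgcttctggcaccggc
Nup54, coding bases 73 to 192: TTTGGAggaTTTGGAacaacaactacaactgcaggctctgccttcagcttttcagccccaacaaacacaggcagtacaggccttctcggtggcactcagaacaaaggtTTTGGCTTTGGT
Nup62cl, coding bases 1 to 120: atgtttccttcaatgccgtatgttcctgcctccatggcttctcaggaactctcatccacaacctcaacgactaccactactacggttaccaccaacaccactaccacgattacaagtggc
The Nup62 stretch holds 2 such pairs, the Nup54 stretch 4 and the Nup62cl stretch 0. Nup62cl has 0 such pairs over its whole coding sequence of 816 bases, so its first 120 bases are shown.

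Of the 50 mouse genes, 49 had a mean of at least 10 normalized reads and were tested, and Kpna7 did not reach that level. Among the 49, Nup62 and Tnpo2 were higher and Ranbp1 was lower in edited morulae at a limma adjusted p under 0.05. These 3 genes are 6.12% of those tested, and over all 11386 mouse genes 15.3% passed, with 788 higher (6.92%) and 954 lower (8.38%). The share among transport genes was thus below the background of this comparison. At the resolution of 2 libraries a group, edited values lay wholly above control values for 20 of the 49 genes (28.6% of all genes did so) and wholly below for 8 (29.2% of all genes). The median log2 fold change of the 49 genes was 0.15, against -0.00 over all genes tested, with 34 positive and 15 negative, and it was 0.10 without control library 2. Most differences were small: 44 of the 49 (89.8%) had a log2 fold change within 0.5 of 0, against 58.8% of all genes, and the median level of the 49 was 341 normalized reads, against 93.9 for all genes.

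**Figure D1:**
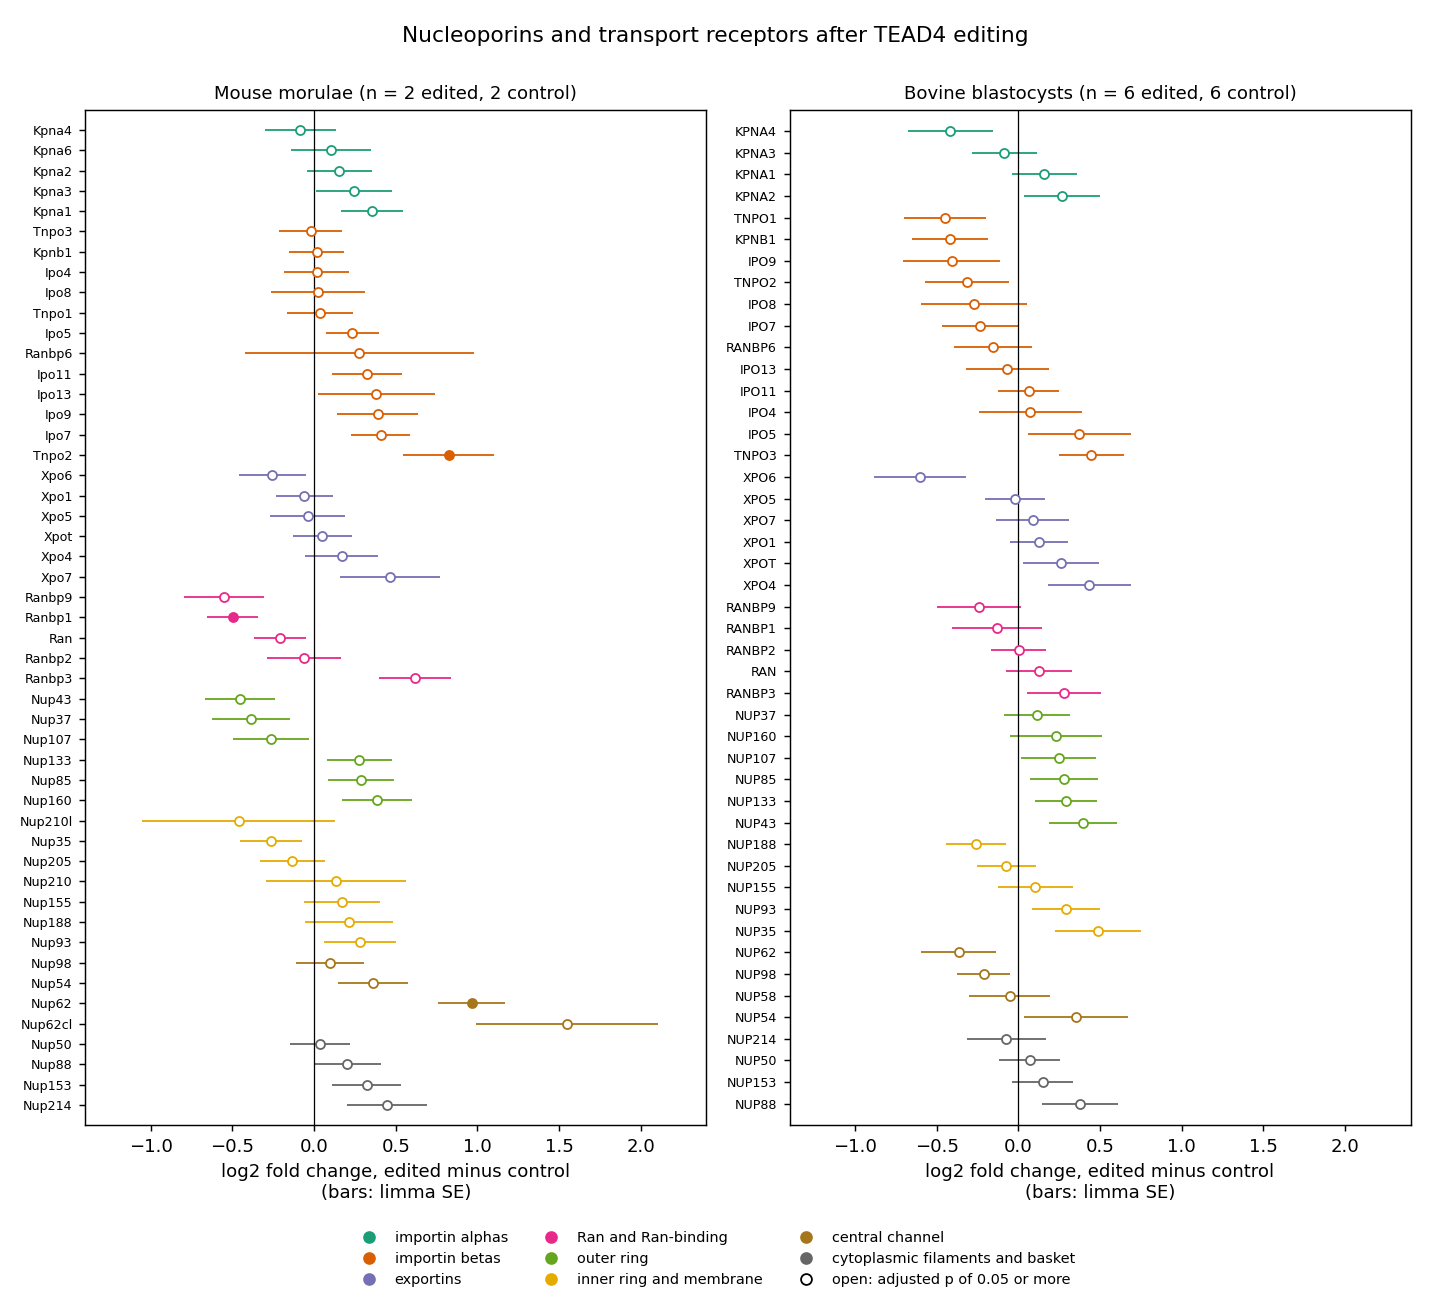
Log2 fold change (edited minus control, log2 of normalized reads plus 1) of each nucleoporin and transport gene, grouped by role, in mouse morulae and bovine blastocysts. Bars are limma standard errors and filled points have an adjusted p under 0.05. In mouse, Nup62 and Tnpo2 lie to the right of 0 and Ranbp1 to the left of it as filled points, and no bovine point is filled.

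Nup62, which anchors the channel's FG meshwork together with Nup54 and Nup58, had 599 and 524 normalized reads in edited morulae, against 257 and 320 in control morulae. Both edited libraries were above both control libraries. The log2 fold change was 0.96 ± 0.21 SE (95% confidence interval 0.54 to 1.39, limma adjusted p = 0.00202). With control library 1 left out, the log2 fold change was 0.81 and no longer passed (adjusted p = 0.0962). The gene lies at chr7:44816088-44830812 on the plus strand, and 6.27% of its exonic bases are shared with Il4i1 on the same strand and Atf5 on the opposite strand. Atf5 had 18.1 and 15.6 normalized reads in edited morulae and 2.23 and 7.59 in control morulae. The authors' deposited table gives Nup62 a log2 fold change of 0.96 and an adjusted p of 0.000821.

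The other channel genes all had positive estimates, and none of them passed. Nup62cl, a paralogue of Nup62, had 25.7 and 41.1 normalized reads in edited morulae, against 7.82 and 13.9 in control morulae, with a log2 fold change of 1.55 ± 0.56 SE and a limma adjusted p of 0.0583. Its groups did not overlap. Nup54 had 341 to 406 normalized reads in edited morulae and 259 to 324 in control morulae (log2 fold change 0.36). Nup98, a mobile FG nucleoporin that also yields the scaffold protein Nup96, had 320 to 387 in edited and 329 to 330 in control morulae (0.10), with overlapping groups. The median of these 4 channel genes of the set was 0.66. That median lies between the values of Nup54 (0.36) and Nup62 (0.96). It counts Nup62cl, which had only 7 to 58 reads in a library. Nupl1, the older symbol of Nup58, is not among these 4 genes. It had 46.7 to 63.8 normalized reads in edited morulae and 24.0 to 35.8 in control morulae. Its log2 fold change was 0.87, with a limma adjusted p of 0.151.

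The other genes with many FG codon pairs did not pass. Counted along the longest coding sequence of each gene, 8 of the transport genes held at least 2 FG codon pairs per 1000 coding bases, as did 9.41% of 13615 mouse genes with a coding sequence of at least 120 bases. Nup214 held 46 pairs, Nup98 41, Nup153 29, Ranbp2 20, Nup54 8, Nup62 6, Nup50 5 and Nup35 3. The median log2 fold change of these 8 genes was 0.21, with 6 positive, 2 negative and 1 that passed, Nup62. Over all mouse genes tested 15.3% passed, so that count is near the background. The 14 nucleoporins with fewer pairs had a median of 0.19, with 9 positive, 5 negative and 0 that passed.

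The filament and basket nucleoporins had positive estimates without a call. Nup214, the cytoplasmic filament protein that docks exportin complexes, had 189 and 217 normalized reads in edited morulae and 147 and 150 in control morulae (log2 fold change 0.45, limma adjusted p = 0.229). The basket proteins Nup153 and Nup50 had log2 fold changes of 0.32 and 0.04, and Nup88, the partner of Nup214, had 0.20. In the outer ring, the Y-shaped scaffold unit, the estimates went both ways. Nup43 had 375 and 588 normalized reads in edited morulae and 569 and 726 in control morulae (-0.45, adjusted p = 0.159), and Nup37 had 174 and 274 in edited morulae and 278 and 295 in control morulae (-0.39, adjusted p = 0.294). Nup160, Nup85 and Nup133, of the same unit, had 0.39, 0.29 and 0.28, and the median of the 6 outer-ring genes was 0.01. In the inner ring and membrane group, 7 genes had a median of 0.14 and a range from -0.46 (Nup210l) to 0.28 (Nup93), and none passed. With control library 1 left out that median was 0.02, and with edited library 2 or 1 left out it was 0.03 or 0.09, while the outer-ring median ranged from -0.09 to 0.08 with 1 library left out.

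**Figure D2:**
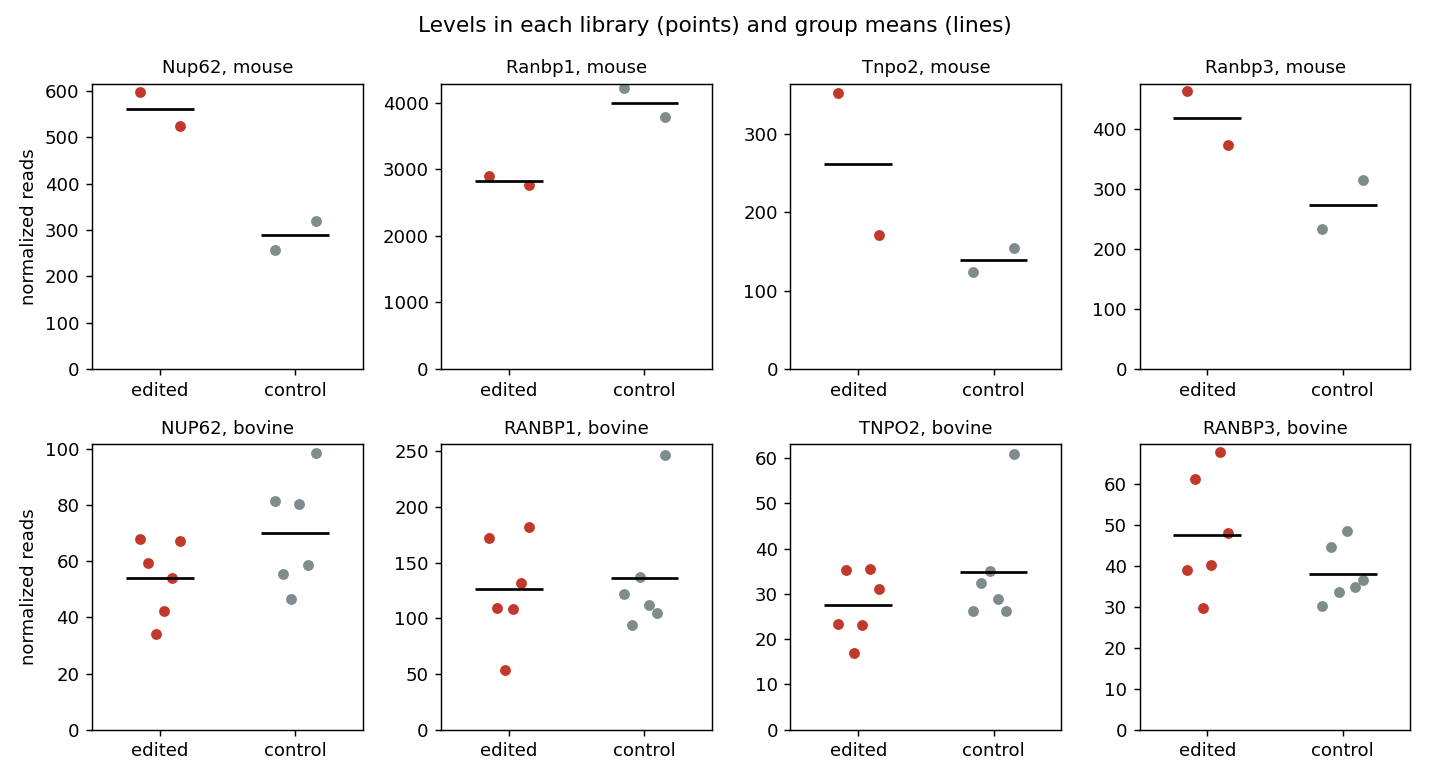
Normalized reads in every library for NUP62, RANBP1, TNPO2 and RANBP3 in mouse morulae (upper panels) and bovine blastocysts (lower panels), edited to the left of control. Points are libraries and lines are group means; mouse Nup62 lies at 524 and 599 in edited and at 257 and 320 in control libraries, and mouse Tnpo2 at 171 and 353 in the 2 edited libraries.

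Among the beta-type import receptors, 1 of 12 passed, against 15.3% of all mouse genes, so that the count is near the background. Tnpo2, a transportin that imports RNA-binding proteins, had 353 and 171 normalized reads in edited morulae, against 124 and 154 in control morulae. Edited library 1 stood far above the other 3. The log2 fold change was 0.82 ± 0.28 SE (limma adjusted p = 0.0465), and without edited library 1 it was 0.30 with an adjusted p of 0.585. Without edited library 2 it was 1.34, without control library 1 the adjusted p was 0.334, and without control library 2 it was 0.122. The gene lies at chr8:85036915-85057583 on the plus strand, and 11.7% of its exonic bases overlap A230103J11Rik on the opposite strand or Gm25506 on the same strand. The authors' deposited table gives it an adjusted p of 0.0691.

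Kpnb1, the importin beta that carries importin alpha cargo, had overlapping groups, with 1472 and 1659 normalized reads in edited morulae and 1433 and 1670 in control morulae. Its log2 fold change was 0.02 ± 0.17 SE, with a 95% confidence interval of -0.33 to 0.36. Tnpo1, the closest relative of Tnpo2, had 354 and 405 normalized reads in edited morulae and 364 and 374 in control morulae (0.04), and Tnpo3, which imports serine-arginine splicing factors, had 480 and 497 in edited and 492 and 498 in control morulae (-0.02). Ipo7, which imports ribosomal proteins and, with Kpnb1, linker histones, had 825 and 832 normalized reads in edited morulae and 596 and 654 in control morulae (0.41, limma adjusted p = 0.133). Ipo5, an import receptor for ribosomal proteins and core histones, had 1967 and 2061 in edited morulae and 1705 and 1718 in control morulae (0.23, adjusted p = 0.360). The median of the 12 genes was 0.26, and 11 of the 12 estimates were positive. Without control library 2 the median was 0.11 with 9 positive, and with the length trend removed 7 were positive.

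The 6 exportin genes had a median log2 fold change of 0.01, or 0.02 to 0.07 with 1 library left out, and none passed. Xpo1, the main exportin for proteins with a nuclear export signal, had 1099 and 1297 normalized reads in edited morulae and 1159 and 1337 in control morulae. The groups overlapped, and the log2 fold change was -0.06 ± 0.17 SE (limma adjusted p = 0.858). Xpot, the tRNA exportin, had 0.05, Xpo5, the exportin of microRNA precursors, had -0.04, and Xpo7 had 0.46 with an adjusted p of 0.334.

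Ranbp1, which helps release Ran from transport receptors in the cytoplasm, fell in edited morulae. It had 2893 and 2758 normalized reads in edited morulae, against 4213 and 3779 in control morulae, with no overlap. The log2 fold change was -0.50 ± 0.16 SE (limma adjusted p = 0.0314), and the authors' deposited table gives -0.50 with an adjusted p of 0.0210. The call was lost with all libraries scaled to the same total (-0.37, adjusted p = 0.0825), without control library 1 (-0.42, adjusted p = 0.337) and without control library 2 (-0.58, adjusted p = 0.149). It lies at chr16:18239784-18248732 on the minus strand, and 20.1% of its exonic bases overlap Gm49776 on the same strand or Trmt2a on the opposite strand. Trmt2a had 291 and 291 normalized reads in edited morulae and 207 and 177 in control morulae, a difference in the other direction.

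The remaining Ran genes did not pass. Ran itself had 5461 and 6236 normalized reads in edited morulae and 6274 and 7241 in control morulae (log2 fold change -0.21 ± 0.16 SE, limma adjusted p = 0.414). The higher edited value was just under the lower control value. Ranbp3, a cofactor of Xpo1, had 374 and 463 normalized reads in edited morulae, against 232 and 315 in control morulae (0.62 ± 0.22 SE, adjusted p = 0.0547). Ranbp9, a scaffold protein of a ubiquitin ligase complex, had 135 and 140 normalized reads in edited morulae and 200 and 205 in control morulae (-0.55, adjusted p = 0.131). Ranbp2, the large filament protein that binds Ran and its GTPase-activating protein, had -0.06.

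**Figure D3:**
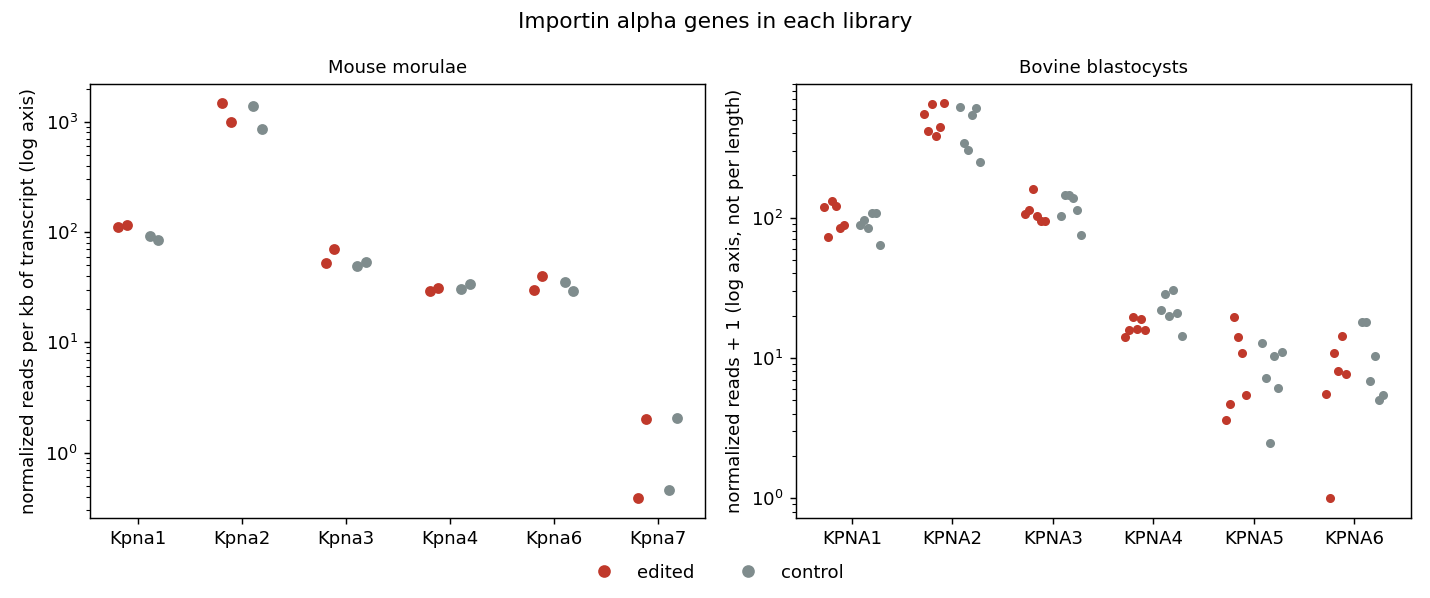
Levels of the importin alpha genes in every library on log axes, as normalized reads per kilobase of transcript in mouse morulae and as normalized reads plus 1, not per length, in bovine blastocysts, edited to the left of control. In mouse, Kpna2 stands above the other 5 genes in each library and Kpna7 lies between 0.389 and 2.06 per kilobase.

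Kpna2, Kpna1 and Kpna3 were the 3 highest importin alpha genes per kilobase in each mouse library, in that order. Per kilobase of transcript, Kpna2 stood at 1468 and 995 normalized reads in edited morulae, against 1381 and 853 in control morulae. Kpna1 followed with 111 and 115 per kilobase in edited and 91.6 and 85.3 in control morulae, and Kpna3 with 52.7 and 70.4 in edited and 49.7 and 53.2 in control morulae. Kpna6 had 29.9 and 39.7 per kilobase in edited and 35.2 and 29.2 in control morulae, while Kpna4 had 29.4 and 31.2 in edited and 30.4 and 33.8 in control morulae. The ranges of Kpna6 and Kpna4 overlapped within each group, so their order is not separated by these libraries, and Kpna3 lay above both in each library. The share of Kpna2 in the summed importin alpha level per kilobase was 86.8% and 79.4% in edited morulae and 86.9% and 80.7% in control morulae.

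None of the 5 tested importin alphas passed in mouse. The log2 fold changes, from all reads and not per kilobase, were 0.36 ± 0.19 SE for Kpna1, 0.15 ± 0.20 for Kpna2, 0.24 ± 0.23 for Kpna3, -0.08 ± 0.22 for Kpna4 and 0.10 ± 0.24 for Kpna6, with limma adjusted p-values of 0.224, 0.658, 0.530, 0.840 and 0.823. Kpna2 values varied more between libraries of a group than between the groups. In Kpna2, 92.4% of the 50-base stretches of the transcript also occur in other annotated transcripts (Gm10184, Gm10259 and Gm12919), so that its level depends on how such reads were counted. The same limit holds for Nup35 (83.0%), Ipo4 (59.5%), Ranbp1 (24.8%) and Nup54 (20.3%). In the other mouse transport genes this share was at most 15.4% (Ran).

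Kpna7, the importin alpha of oocytes and early embryos, had few reads at the morula stage, with 1 and 7 reads in edited morulae and 1 and 4 reads in control morulae, at or below 5.06 normalized reads in each library. Set against Kpna2 in the same library, the log2 ratio of Kpna7 to Kpna2 was -10.59 and -8.42 in edited morulae and -10.39 and -8.18 in control morulae. The difference of the group means was -0.22, and the two-sided exact permutation test over samples gave p = 0.667, where 2 against 2 libraries allow no p below 0.3333. This test could not have passed with so few libraries and says nothing on whether Kpna7 differed. Library 1 had the lower ratio in both groups, and whether same-numbered mouse libraries were paired cannot be told.

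Trophectoderm markers moved with the edit in the same mouse libraries. The summed level of Krt8, Krt18, Gata3, Cdx2 and Tfap2c was 1894 to 2124 normalized reads in edited morulae and 6169 to 7107 in control morulae, with 4 of the 5 lower at a limma adjusted p under 0.05. Pluripotency markers summed to 3970 to 4533 normalized reads in edited and 3456 to 3940 in control morulae, with Pou5f1 and Esrrb higher among 5 tested. Oocyte markers summed to 255 to 311 in edited and 311 to 326 in control morulae over 11 genes of the table, with Ooep lower among 5 tested. Primitive endoderm markers summed to 1342 to 1412 in edited and 1600 to 1706 in control morulae, with Gata4 higher among 4 tested. The sums were 82.2 to 114 in edited and 41.7 to 87.2 in control morulae over 3 cumulus and granulosa markers, and 4.96 to 36.2 in edited and 0 to 10.1 in control morulae for the 1 blood marker. Their part in the levels of the transport genes was not tested. Fewer cells of a type and less RNA per cell cannot be told apart in such bulk samples. The fold changes of the 49 transport genes had little relation to transcript length (Spearman's rho 0.08 and Pearson's r 0.11 across genes, which are not independent replicates), with median log2 fold changes of 0.15, 0.23 and 0.12 among the shortest 17, the middle 16 and the longest 16 genes. These values cover the transport genes only. With a length trend over all mouse genes of known length removed, Tnpo2 and Ranbp1 missed the threshold and Nup62 passed.

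Pore and Ran-cycle genes whose symbols fall outside the families above included 2 that were higher among 19 tested in mouse, where 6.92% of all genes were higher and 15.3% passed in either direction. That count is near the background too. Pom121, a membrane nucleoporin that anchors the pore in the nuclear envelope, had 346 to 508 normalized reads in edited morulae, against 165 to 186 in control morulae (log2 fold change 1.25 ± 0.23 SE, limma adjusted p = 0.000497). Rcc1, the chromatin-bound exchange factor that loads Ran with GTP, had 575 to 595 in edited morulae and 306 to 369 in control morulae (0.80 ± 0.20 SE, adjusted p = 0.00689), and it missed the threshold when control library 2 was left out (0.66, adjusted p = 0.172). None of the 19 was lower with a call, and their median was 0.12. Among those that did not pass, Rangap1, the Ran GTPase-activating protein, had 0.30, Cse1l, the exportin that returns importin alphas to the cytoplasm, had 0.23, and Nutf2, which imports Ran itself, had -0.33.

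In bovine blastocysts, no nucleoporin or transport gene passed. Of the 50 genes, 46 were tested (KPNA5, KPNA6, NUP210 and NUP210L had a mean below 10 normalized reads), and 0 of 46 had a limma adjusted p under 0.05, against 1 of 8884 genes or 0.0113% over the whole table. At an unadjusted p under 0.05 there were 2 of the 46, against 5.88% of all genes, and edgeR and DESeq2 on the recovered reads also called 0 of them, against 0.0113% and 0.0563% of all genes. Edited and control values overlapped for each of the 46, where 0.0900% of all genes lay wholly higher and 0.158% wholly lower in edited blastocysts. The median log2 fold change was 0.07 with 26 positive, against 0.01 over all genes, and it was -0.07 without control libraries 3 and 6. Of the 46, 45 (97.8%) were within 0.5 of 0, against 89.3% of all genes, while the median absolute log2 fold change was 0.24 for the 46 and 0.21 for all genes. The median level of the 46 was 91.7 normalized reads and the median SE of their log2 fold changes 0.23. TEAD4 itself, at -1.25, did not pass in the same fit, so the lack of a call does not show that a gene had the same level in both groups.

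The 5 bovine genes with the smallest unadjusted p were 2 beta-type importins, 1 exportin and 2 scaffold nucleoporins, and each had a limma adjusted p of 0.792. TNPO3, the import receptor of splicing factors, had 119 to 185 normalized reads with a median of 138 in edited blastocysts, against 84.1 to 170 with a median of 97.2 in control blastocysts (log2 fold change 0.45, unadjusted p = 0.036). XPO6, the exportin of actin, had 8.11 to 14.9 with a median of 10.6 in edited and 14.3 to 23.7 with a median of 15.7 in control blastocysts (-0.60, unadjusted p = 0.0464). The groups of XPO6 overlapped only between 14.3 and 14.9 normalized reads. NUP43 had 104 to 192 in edited and 65.2 to 120 in control blastocysts (0.40, unadjusted p = 0.0693), and NUP35 of the inner ring had 63.1 to 105 in edited and 26.5 to 106 in control blastocysts (0.49, unadjusted p = 0.0768). KPNB1 had 40.2 to 96.3 with a median of 74.3 in edited and 66.8 to 118 with a median of 93.2 in control blastocysts (-0.42 ± 0.23 SE, unadjusted p = 0.0878).

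Bovine importin alphas also overlapped between groups. KPNA2 averaged 512 ± 118 normalized reads in edited blastocysts and 443 ± 162 in control blastocysts (SD, n = 6 each), with a log2 fold change of 0.27, a 95% confidence interval of -0.22 to 0.75 and a limma adjusted p of 0.827. It held 59.7% to 75.9% of the importin alpha reads, a share not corrected for length, in edited and 54.0% to 71.8% in control libraries. KPNA1 had 102 ± 23.6 in edited and 90.5 ± 16.6 in control blastocysts (0.16), KPNA3 had 111 ± 24.4 in edited and 119 ± 28.1 in control blastocysts (-0.09), and KPNA4 had 15.6 ± 2.06 in edited and 21.7 ± 6.0 in control blastocysts (-0.42, adjusted p = 0.793). KPNA5 and KPNA6 had group means from 6.88 to 9.58 normalized reads. Bovine KPNA7 was not analysed here. RAN had 925 ± 201 in edited and 862 ± 243 in control blastocysts (0.13), and XPO1 had 221 ± 40.3 in edited and 203 ± 40.9 in control blastocysts (0.13).

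By role, the bovine outer ring had a median log2 fold change of 0.26 with 6 of 6 positive estimates, but 0.14 without control library 6 and 0.07 with 4 of 6 positive without control libraries 3 and 6. The beta-type importins had -0.19 with 8 of 12 negative, and -0.10 without edited library 5 and -0.13 without control library 3. The central channel had -0.13, the importin alphas 0.04, the exportins 0.11, the Ran genes 0.00, the inner ring and membrane genes 0.10 and the filaments and basket 0.11, and each of these 6 medians moved by over 1.5 times with some library left out. Without control library 6 they were -0.07 for the inner ring and membrane genes, -0.08 for the importin alphas, 0.01 for the exportins, -0.02 for the Ran genes and -0.23 for the central channel, and without control library 3 the filaments and basket had 0.04. No gene of any role passed, and 0 of the 17 tested pore and Ran-cycle genes with other names did. NUP210, a membrane nucleoporin below the level filter, had 2 to 3 reads in 5 edited libraries and 23 in edited library 5, against 3 reads in control library 6 and 0 in the other 5 control libraries. Edited library 5 thus held 23 of the 34 reads of the edited group, and 4 edited libraries lay under the limit of 3 reads. Without the level filter its limma adjusted p was 0.894.

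**Figure D4:**
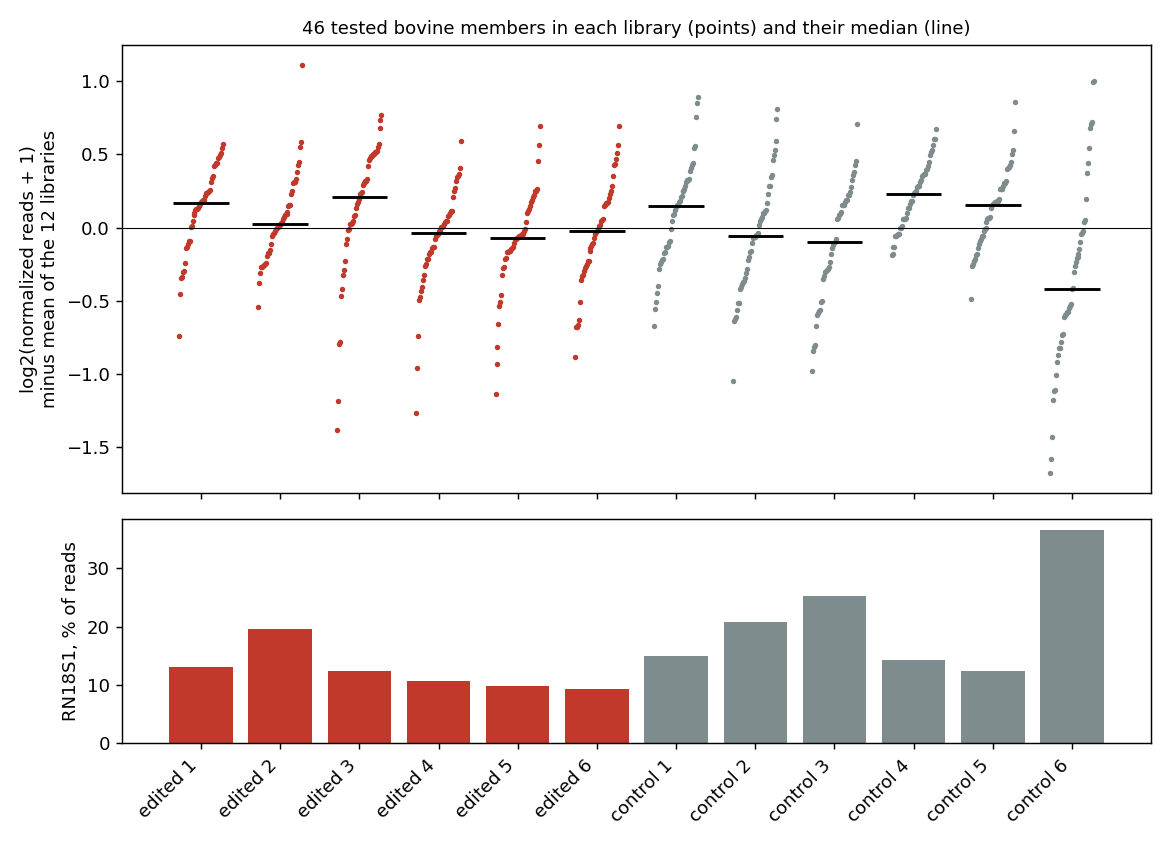
Deviation of the 46 tested transport genes from their mean over 12 bovine libraries (log2), and the share of reads taken by RN18S1, by library, edited to the left of control. Points are genes, lines are medians and bars are shares. Control library 6 has the lowest median deviation, -0.42, and the highest RN18S1 share, 36.6%.

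One bovine library stood apart for these genes. In control library 6, 20 of the 46 genes (43.5%) had their lowest value of the 12 libraries, against 18.9% of all genes, and their median deviation from the gene's mean was -0.42 on the log2 scale. Transport genes took 0.220% of the reads there, against 0.345% to 0.442% in edited libraries, 0.289% in control library 3 and 0.351% to 0.424% in the remaining control libraries. These are shares of all reads, RN18S1 reads included, so a large RN18S1 share by itself lowers them. NUP62, TNPO2, RANBP9 and RANBP1 went the other way and had their highest value in control library 6. This was also the library with the largest share of RN18S1 reads, whose part was not tested. Without control libraries 3 and 6, 0 of the tested transport genes passed in bovine, and the median log2 fold change of the 46 was -0.07, with 17 positive. Without control library 6 alone that median was -0.00, with 23 positive. Leaving out both also turned the medians of the exportins (-0.03), the importin alphas (-0.10), the inner ring and membrane genes (-0.07) and the Ran genes (-0.02) to the other side of 0, and gave the central channel -0.30. Marker sums overlapped between the bovine groups, with 8441 to 21449 normalized reads of trophectoderm markers in edited and 11093 to 21398 in control libraries, 18.4 to 46.5 of oocyte markers in edited and 20.005 to 76.3 in control libraries, and 13.6 to 86.3 of cumulus and granulosa markers in edited and 17.7 to 198 in control libraries.

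The difference between the species was tested for the 45 genes tested in both, and it passed for 1, against 6.07% of 7073 shared symbols. Bovine NUP62 had 34.0 to 68.1 normalized reads with a median of 56.6 in edited blastocysts, against 46.7 to 98.4 with a median of 69.5 in control blastocysts (log2 fold change -0.36, limma adjusted p = 0.793). The log2 fold change of NUP62 was 1.33 ± 0.31 SE higher in mouse morulae than in bovine blastocysts, with an adjusted p of 0.00614 from both limma fits. It was lost without mouse control library 1 (1.17, adjusted p = 0.0949). The next were TNPO2, with a difference of 1.14 and an adjusted p of 0.0620, and NUP43, with -0.85 and 0.0757. RANBP1 had -0.50 in mouse and -0.13 in bovine, and that difference of -0.37 had an adjusted p of 0.540. KPNA2 had 0.15 in mouse and 0.27 in bovine, with a difference of -0.11 and an adjusted p of 0.874.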

How the data were processed

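Polyadenylated RNA was copied with an oligo(dT) primer and sequenced by a Smart-seq2 procedure, per the labels' protocols. Trimmomatic, HISAT2, featureCounts and DESeq2 and the builds mm10 and ARS-UCD1.2 are named in the submitters' processing notes. Strand setting, annotation and the handling of multiply matching reads are not given in the sources used here; overlapping and antisense genes, and genes with near-identical copies, are uncertain. The deposited signal values are read counts divided by a size factor per library, as the values show and per the file headers. The deposited tables also hold the authors' own log2 fold changes, their p-values and a test statistic treated as a score, per the file headers. These were quoted only as values of the authors' deposited table, without the score. Whole reads were recovered from the steps between values, with 100% of values whole within 0.05 reads.

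Each species was tested alone with limma 3.58.1 in R 4.3.3 (two-sided, edited minus control, variance trend) after log2(value + 1), over genes averaging 10 normalized reads or more. Benjamini-Hochberg adjustment ran over all genes tested, at a threshold of 0.05, and every adjusted p is from these fits unless another source is named. The pseudocount shrinks the fold changes of low genes. Species differences were tested on the difference of both log2 fold changes, with Satterthwaite degrees of freedom. edgeR 4.0.16 and DESeq2 1.42.0 on the recovered reads were alternatives, as were other pseudocounts, filters, scalings, a length correction, a replicate block and leaving out libraries. The fits were tested on simulated data.

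The genes, lists and tests were chosen with earlier results of these data known. Full statistics were given to the importin alphas, KPNB1, RAN, XPO1, the genes that passed, the 5 bovine genes with the smallest unadjusted p, TEAD4 and the genes of the other transport lists that passed. Other genes are named to describe their role group. Lengths, coordinates and sequences of mouse genes came from GENCODE M21 (GRCm38), which gave a length for 89.0% of mouse symbols and for all 50 transport genes. Bovine coordinates and sequences were not used here.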

Additional observations from a re-analysis of the deposited data

Results flagged for a closer look

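In 92 groups of 6 bovine libraries, 1 per tested transport gene and group, 6 held a library far from the other 5 by Dixon's test at the 95% level, where chance gives about 1 in 20. IPO13 stood at 47.3 normalized reads in edited library 1, with 33.3 in the next library, and KPNA3 stood at 158 in edited library 3, with 113 in the next. NUP153 stood at 94.8 in control library 4 (64.1 in the next), and NUP188 at 88.1 in control library 1 (64.6 in the next). Control library 6 held 2 of the 6, with RANBP1 at 247 (137 in the next) and TNPO2 at 60.8 (34.99 in the next). None of these 6 genes passed in bovine with or without control libraries 3 and 6.

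NUP62 differed between the species by the test of the difference itself. Its log2 fold change was 0.96 in mouse morulae and -0.36 in bovine blastocysts, a difference of 1.33 with an adjusted p of 0.00614. Species and stage cannot be told apart here, and the difference did not pass without mouse control library 1.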

How the results depend on the processing

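The mouse transport genes that passed numbered 3 in the analysis as reported. With all libraries scaled to the same total they numbered 5 (Ipo7, Nup62, Nup62cl, Ranbp3 and Tnpo2, all higher), with the length trend removed 1 (Nup62), and leaving out 1 library at a time 0 to 6. The 6 came without edited library 2, and there were 0 without control library 1, 1 without control library 2 and 2 without edited library 1. Over all mouse genes, leaving out 1 library gave 580 to 2588 calls. That scaling moved the median log2 fold change of all mouse genes to 0.12 and of the transport genes to 0.28, and the split of all calls to 1113 higher and 684 lower. In bovine it moved the medians to 0.13 and 0.19. With the length trend removed, the medians of the mouse outer ring and exportins were -0.05 and -0.06, and scaled to totals without ribosomal RNA, that of the bovine Ran genes was -0.03; as reported all 3 were 0.00 to 0.01. Correlations of same-numbered deviations were -0.19 to 0.34 in bovine, so the replicate numbers did not clearly pair the libraries there. In mouse they were 0.11, and 2 pairs are too few to tell whether same-numbered libraries were paired. With a replicate block, 4 mouse transport genes passed of 1816 calls, and 0 of 1 in bovine. In bovine, 0 transport genes passed under any alternative run, while DESeq2 called 5 genes over the whole table, TEAD4 with an adjusted p of 0.0066.

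Tnpo2 also missed the threshold with robust limma (adjusted p = 0.0534), without the level filter (0.0819), with DESeq2 (0.0633) and with the length trend removed (0.0982), and Ranbp1 with the length trend removed (-0.35, adjusted p = 0.104). Nup62 passed in each of these. The species difference passed for 1 gene, for 0 to 3 genes without 1 library (an alternative added after seeing the data, as was leaving out bovine control libraries 3 and 6), and was 0 only without mouse control library 1. The Kpna7 to Kpna2 log2 ratio differed by -0.22, by -0.24 and -0.18 with pseudocounts of 0.5 and 5, and by -1.33 to 0.88 without 1 library. Of the genes that did not pass, 16 of 46 in mouse and 20 of 46 in bovine changed sign in some alternative. The causes were not tested. The bovine ratio of KPNA7 to KPNA2 was not run. Kpna7 in mouse and KPNA5, KPNA6, NUP210 and NUP210L in bovine were too low for the level filter.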

Other observations

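Genes of mRNA export and of the nuclear lamina gave 5 calls in mouse, 4 of 21 and 1 of 13 genes tested, close to the 15.3% of all mouse genes that passed. Of 21 mRNA export genes tested, Mcm3ap, the scaffold of the TREX-2 complex, was higher, with 347 to 446 normalized reads in edited morulae and 211 to 227 in control morulae (log2 fold change 0.84, adjusted p = 0.00914). Eny2, a small subunit of TREX-2 and of a histone deubiquitinase, was lower, with 174 to 257 in edited and 363 to 486 in control morulae (-0.99, adjusted p = 0.00458). Alyref, the export adaptor, had 234 to 236 in edited and 340 to 412 in control morulae (-0.67, adjusted p = 0.0341), and Thoc2 of the THO complex had 453 to 492 in edited and 632 to 780 in control morulae (-0.57, adjusted p = 0.0424). The median of the 21 genes was 0.12.

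Of 13 lamina genes tested in mouse, Tmpo, a lamin-binding protein of the inner nuclear membrane, was lower, with 284 to 286 normalized reads in edited morulae and 406 to 474 in control morulae (log2 fold change -0.62, adjusted p = 0.0407). The median of the 13 was -0.15. Each of these 5 calls was lost without control library 1: the adjusted p was 0.0849 for Mcm3ap, 0.179 for Eny2, 0.126 for Alyref, 0.129 for Thoc2 and 0.160 for Tmpo. Without control library 2 it was 0.131 for Mcm3ap, 0.360 for Alyref, 0.432 for Thoc2 and 0.366 for Tmpo, and without edited library 1 it was 0.0591 for Mcm3ap and 0.0787 for Thoc2. Alyref, Thoc2 and Tmpo also missed the threshold with all libraries scaled to the same total (0.0826, 0.105 and 0.0991). In bovine, 0 of 22 mRNA export genes and 0 of 14 lamina genes passed.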
